A study of Mus musculus with 18 samples.

Results

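The 34 genes described here are known from cardiomyocytes and from the pulmonary vein myocardium, and they were measured in RNA from whole embryonic lungs of the mouse. They were picked by name from 23420 genes listed in each of 3 deposited tables, because their values were lower in lungs with *Wnt5a* targeted by Sox9-Cre. A gene was tested in a table where at least 10 normalized counts, which are read counts divided by a size factor of the library, were found in at least 3 of the 6 libraries. Of the 34 genes, 29 passed in the Dermo1-Cre table, 32 in the Sox9-Cre table and 26 in the *Vangl1/2* table. *Nppb* and *Ckm* passed in none of the tables. *Myl2*, *Myl3* and *Pln* failed in the Dermo1-Cre and *Vangl1/2* tables, and *Nppa*, *Sln* and *Trdn* failed in the *Vangl1/2* table. At the threshold, the value of the third-highest library was 10.9 for *Myl2* and 8.78 for *Ckm* in the Sox9-Cre table, 15.9 for *Nkx2-5* and 8.93 for *Ckm* in the Dermo1-Cre table, and 12.6 for *Casq2* and 9.30 for *Pln* in the *Vangl1/2* table.

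Each table held 3 control and 3 mutant libraries. Wnt5af/+; Dermo1Cre controls and Wnt5af/f; Dermo1Cre mutants were collected at E12.5dpc, and Wnt5af/+; Sox9Cre controls and Wnt5af/f; Sox9Cre mutants at E13.5dpc. All 12 of these libraries thus carried Cre and at least 1 floxed *Wnt5a* allele. In the last table, Vangl1-/- lungs were the controls of Vangl1-/-; Vangl2-/- lungs at E12.5dpc, so that both groups are labelled as *Vangl1* mutants. The study's methods name a gene trap as the *Vangl1* allele. Dermo1-Cre acts in the lung mesenchyme and Sox9-Cre in the lung epithelium, where it comes on late and does not produce defects in every embryo. The number of embryos in a library was not stated in the sources used here. Values per group are listed for replicates 1, 2 and 3 in that order.

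Between 15945393 and 19814346 reads lay on genes in a library. *Vangl2* was at 276.8 to 406 normalized counts in its controls and 79.8 to 89.6 in the Vangl1-/-; Vangl2-/- lungs. *Vangl1* reads were still found in that table, at 113 to 219 normalized counts in controls and 239 to 274 in mutants, so its counts do not check the *Vangl1* label. *Wnt5a* overlapped between the groups in both *Wnt5a* tables (430 to 489 in controls and 230 to 436 in mutants with Dermo1-Cre, 426 to 473 and 362 to 448 with Sox9-Cre), so it does not check their labels. On the first principal component over all genes tested, *Vangl1/2* control replicate 2, at 17.0, lay beside the mutants (15.1 to 21.5) and apart from the other controls (-30.1 and -44.7). Sox9-Cre mutant replicate 1, at -18.5, lay among its controls (-19.5 to -5.42) and apart from the other mutants (18.8 and 35.7).

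Cardiomyocytes contract through sarcomeres, in which myosin thick filaments pull on actin thin filaments when calcium released from the sarcoplasmic reticulum binds troponin. Atrial and ventricular cells use different myosin light chains, and atrial cells also store natriuretic peptides. In the mouse, a sleeve of myocardium with atrial features grows from the left atrium along the pulmonary veins and into the lung. The tables carry no position within the organ, so pulmonary vein myocardium and atrial tissue attached to a dissected lung cannot be told apart.

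Stretches before the starts of these genes are shown first, as a description. A link between their letters and the values by library was not tested. Sequences were found for 30 of the 34 genes in RefSeq's promoter table (build GRCm38.p6, 37 promoters); *Dsc2*, *Sln*, *Trdn* and *Atp2a2* are named only. The 250 bases before each start were searched on both strands. The CArG box, the site of serum response factor, was found in 5 of 30 (*Actc1*, *Ldb3*, *Myl3*, *Myl7* and *Myom1*) and in 1.62% of 27025 genes of the table. The MEF2 site was found in 3 of 30 (*Casq2*, *Mybpc3* and *Ttn*) and in 3.42% of all genes. AGATAA, the letters read by GATA factors, was found in 7 of 30 and in 11.4% of all genes. TNAAGTG, known from Nkx2-5, was found in 3 of 30 and in 11.4% of all genes. AGGTGT, known from T-box factors, was found in 5 of 30 and in 13.6% of all genes, and TATAAA in 4 of 30 and in 14.3%. Such a match is a description of letters and not a site shown to be bound. The 250 bases before the starts of *Nppa* and *Myl7*, both atrial genes, are shown. For *Actc1*, *Myl3*, *Ttn*, *Mybpc3* and *Casq2*, 60 bases around the CArG box or the MEF2 site are shown. Capitals mark the T-box, Nkx2-5 and TATA letters in *Nppa*, the CArG box in *Myl7*, *Actc1* and *Myl3*, and the MEF2 site in the other 3 genes.
Nppa, chr4:148000472-148000721, plus strand: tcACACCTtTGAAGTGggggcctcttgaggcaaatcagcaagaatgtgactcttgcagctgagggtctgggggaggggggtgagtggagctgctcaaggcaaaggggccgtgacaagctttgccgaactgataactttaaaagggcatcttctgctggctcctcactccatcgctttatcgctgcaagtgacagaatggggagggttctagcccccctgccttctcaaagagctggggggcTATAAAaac
Myl7, chr11:5898783-5899032, minus strand: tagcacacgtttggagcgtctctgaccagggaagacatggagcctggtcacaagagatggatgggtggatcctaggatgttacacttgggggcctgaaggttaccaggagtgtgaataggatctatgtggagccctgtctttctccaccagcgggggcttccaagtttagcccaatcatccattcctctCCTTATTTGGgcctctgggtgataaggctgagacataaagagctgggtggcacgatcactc
Actc1, chr2:114052888-114052947, minus strand: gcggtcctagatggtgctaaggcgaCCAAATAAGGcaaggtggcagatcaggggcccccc
Myl3, chr9:110763568-110763627, plus strand: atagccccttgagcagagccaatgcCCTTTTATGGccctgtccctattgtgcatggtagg
Ttn, chr2:76982679-76982738, minus strand: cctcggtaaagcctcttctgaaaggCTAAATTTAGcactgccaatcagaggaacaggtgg
Mybpc3, chr2:91118029-91118088, plus strand: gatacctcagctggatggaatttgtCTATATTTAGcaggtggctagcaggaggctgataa
Casq2, chr3:102086321-102086380, plus strand: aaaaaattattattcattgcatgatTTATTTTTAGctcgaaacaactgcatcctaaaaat

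Detection of the members is described first, which does not check their label, since they were picked by name. Reads of 29 of the 34 genes were found in all 18 libraries. For this, 1 read was enough, as for *Nppa* in Dermo1-Cre control replicate 1, and the share of all genes was not computed. *Nppb* was at 0 in 8 libraries, *Sln* in 3, and *Nkx2-5*, *Ckm* and *Trdn* in 2 each. *Tnnt2*, *Myh6*, *Actn2* and *Myl7* were among the members found in every library, at levels that differed widely. As RPKM, reads on genes scaled to depth and to the length of the transcript, the median over the 18 libraries was highest for *Atp2a2* (82.7, range 50.5 to 109), followed by *Actc1* (58.0, range 6.18 to 234), *Myl7* (38.2, range 6.49 to 221) and *Myl4* (25.9, range 3.84 to 163). The ranges of *Actc1*, *Myl7* and *Myl4* overlapped over most of their length, so these neighbours are not ordered beyond their spread. The tables were normalized separately, so levels across them are a description. *Ttn*, at a median of 0.0629, and *Nppb*, at 0.0658, were the lowest on this scale. *Atp2a2* encodes the calcium pump SERCA2, which many cell types use. Its range was narrow, as were those of *Gja5* (5.03 to 11.6) and *Smpx* (12.6 to 37.2).

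Leaving out *Atp2a2*, which alone held much of the sum, the other 33 genes together took 160, 611 and 1793 RPM, reads scaled to the reads on genes of the library, in the Dermo1-Cre controls and 301, 447 and 121 in the mutants. The sums were 521, 763 and 1606 RPM in the Sox9-Cre controls and 580, 286 and 136 in the mutants. In the *Vangl1/2* table they were 172, 180 and 389 RPM in controls and 84.1, 594 and 161 in mutants. The highest library exceeded the lowest by 14.8-fold, 11.8-fold and 7.06-fold in the 3 tables. Control replicate 3 held the most in both *Wnt5a* tables, and in the *Vangl1/2* table the most and the least were both found in mutants (plot of summed reads by library). In bulk RNA, fewer cardiomyocytes and less RNA of these genes per cardiomyocyte cannot be told apart.

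**Figure D1:**
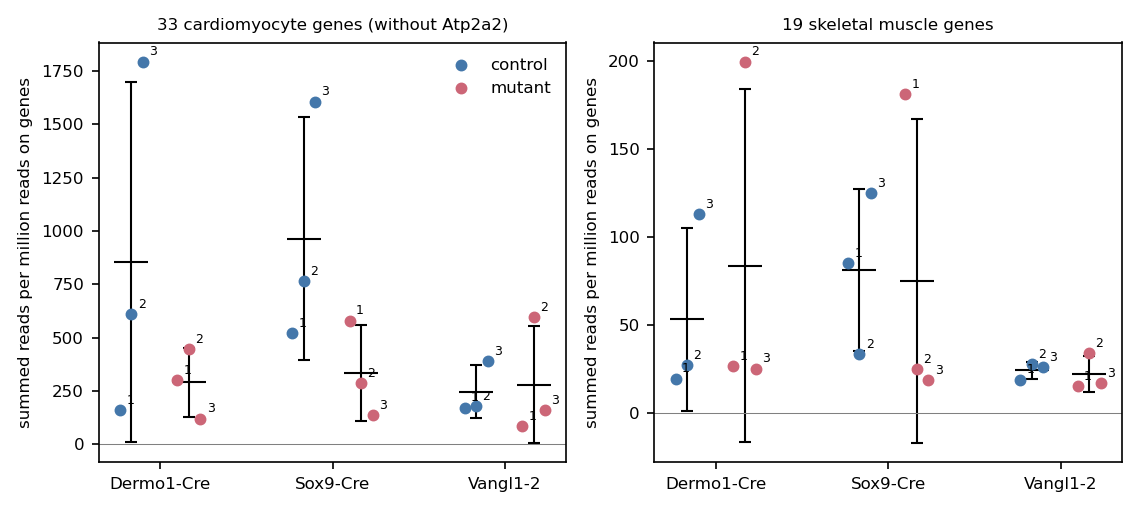
Summed RPM (reads scaled to the reads on genes of each library) for 33 cardiomyocyte genes without Atp2a2 (left) and for 19 skeletal muscle genes (right) in each library. Points are libraries with their replicate number, and bars are the mean ± SD of 3 libraries. Cardiomyocyte sums reached 1793 and 1606 RPM in control replicate 3 of the Dermo1-Cre and Sox9-Cre tables, and 594 in mutant replicate 2 of the Vangl1-2 table.

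The spread between libraries of the same group was far above that of other genes. The SD within groups on the log2(normalized count + 1) scale had a median of 1.65 over the members tested with Dermo1-Cre, 1.09 with Sox9-Cre and 1.47 in the *Vangl1/2* table, against 0.0973, 0.115 and 0.188 over all genes tested. It lay above the 99th percentile of all genes for 22 of 29, 17 of 32 and 16 of 26 members. In Dermo1-Cre control replicate 3, 28 of 29 members had their highest value of the 6 libraries, whereas 17.7% of all genes did. *Vangl1/2* mutant replicate 2 was the highest for 22 of 26, against 13.4%. In these 2 tables most members had the same highest library (heat map of the members by library). Sox9-Cre control replicate 3 was the highest for 32 of 32 (12.1% of all genes), from which nothing is read, since these libraries chose the genes. *Atp2a2*, *Gja5* and *Smpx* were exceptions in each table, with less than 3-fold between the highest and the lowest library.

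**Figure D2:**
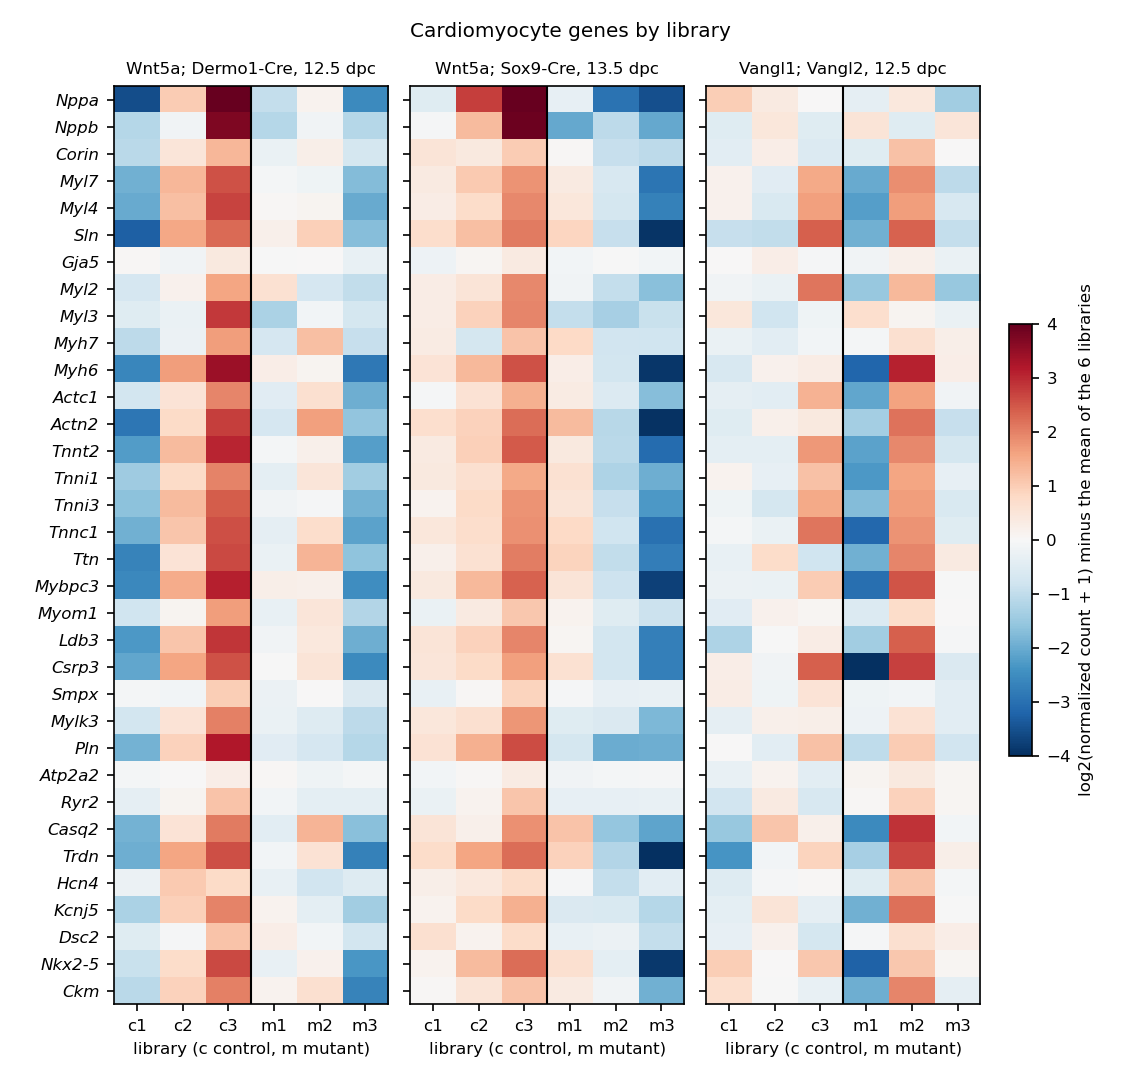
Each member (row) in each library (column) of the 3 tables, as log2(normalized count + 1) minus the mean of the 6 libraries of its table, with c for control and m for mutant. Most rows are darkest red in control replicate 3 of both Wnt5a tables and in mutant replicate 2 of the Vangl1-2 table, and the rows of Gja5, Smpx and Atp2a2 stay near 0.

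The Dermo1-Cre table holds libraries that the choice of genes did not use, although its results were known when they were chosen. Limma, fitted to all 14277 genes with Benjamini-Hochberg adjustment, called 0 of 29 members at an adjusted p under 0.05, where it called 2 genes in all (0.0140%). EdgeR called 0 members as well (2 genes, 0.0140%), and DESeq2 called 1 member (100 genes, 0.700%). All 29 log2 fold changes of the members tested were below 0, as were 49.7% of those of all genes. Their median was -1.10. Without control replicate 3, 19 of 29 were below 0 and the median was -0.17, and without control replicate 1 the median was -1.97. At an unadjusted p under 0.05, 1 member was lower (*Hcn4*) and 0 were higher, where limma had 4.76% of all genes lower and 5.42% higher.

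**Figure D3:**
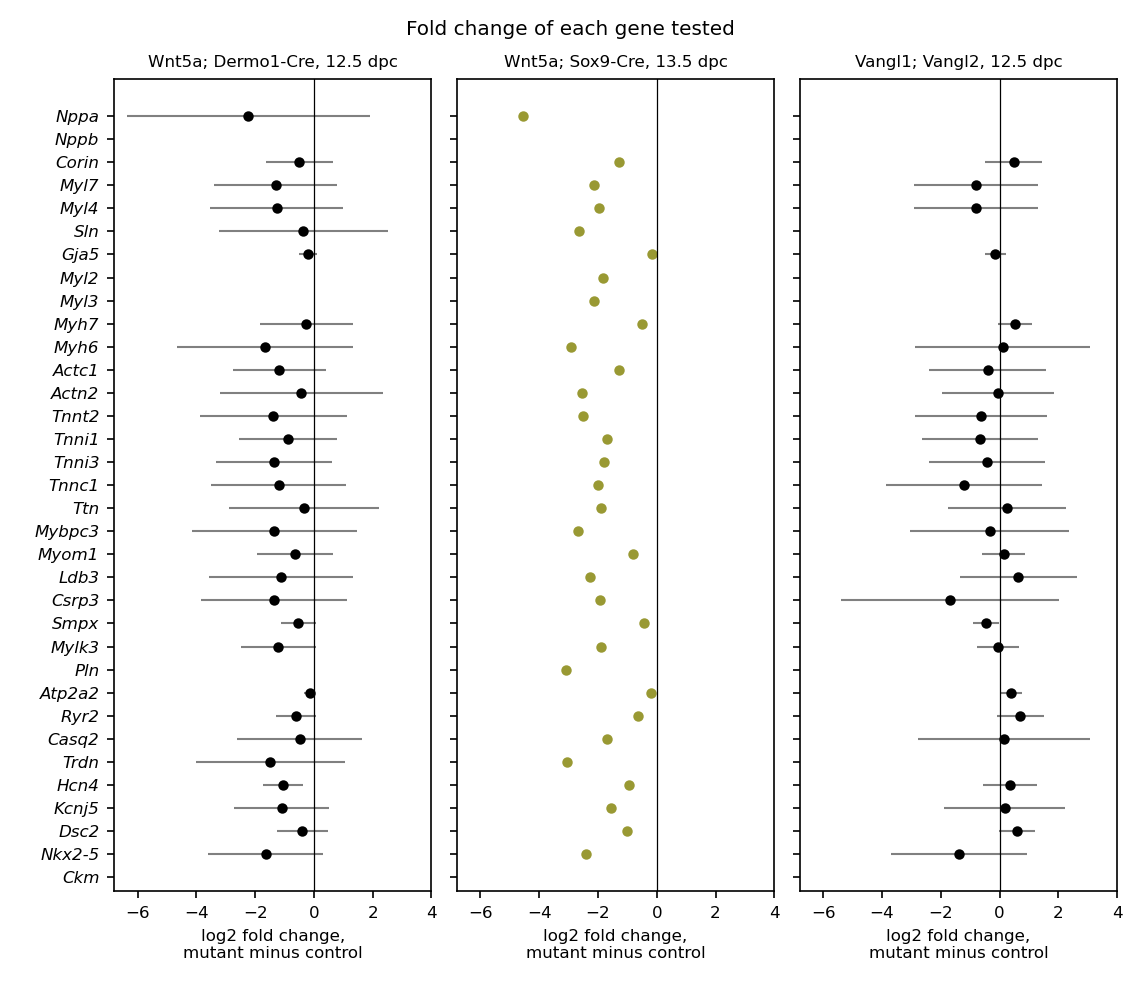
Log2 fold change (mutant minus control, on the log2(normalized count + 1) scale) of each member tested. Lines are 95% intervals from limma in the Dermo1-Cre and Vangl1-2 tables, and the Sox9-Cre values, which chose the genes, are shown as points without intervals. Hcn4 with Dermo1-Cre and Smpx and Atp2a2 in the Vangl1-2 table have intervals that leave out 0.

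The atrial genes are described first. *Nppa* encodes atrial natriuretic peptide, a hormone of the atrial wall. With Dermo1-Cre it was at 1.0, 46.2 and 1352 normalized counts in controls and 11.1, 24.8 and 3.0 in mutants. A single control held nearly all of it, and the mutants lay within the range of the controls. Its log2 fold change was -2.23 (95% interval -6.36 to 1.91, limma adjusted p = 0.70). *Nppa* was at 49.6, 476 and 1614 in the Sox9-Cre controls and 54.7, 8.05 and 5.13 in the mutants, where mutant replicate 1 overlapped control replicate 1. *Nppa* in the *Vangl1/2* table was at 9.30, 5.59 and 4.20 in controls and 3.02, 5.91 and 0.99 in mutants, which is too low for a test. *Nppb*, which encodes the related B-type peptide, had 28.7 normalized counts in Dermo1-Cre control replicate 3, and 60.9 in Sox9-Cre control replicate 3. All other libraries were at 8.96 or below. *Corin* encodes the protease that cuts the precursor of atrial natriuretic peptide. With Dermo1-Cre it was at 40.1, 119 and 217 in controls and 71.6, 100.2 and 51.9 in mutants (log2 fold change -0.49, 95% interval -1.62 to 0.64), and the groups overlapped.

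*Myl7* and *Myl4* encode the atrial regulatory and essential myosin light chains. *Myl7* was at 92.2, 894 and 2079 normalized counts in the Dermo1-Cre controls and 338, 317 and 106 in the mutants. *Myl4* was at 87.2, 815 and 2338 in controls and 364, 380.1 and 86.9 in mutants. The controls alone ran from the level of the lowest mutant to far above the highest one for both genes. Their log2 fold changes were -1.31 (95% interval -3.41 to 0.80) and -1.26 (95% interval -3.53 to 1.01), with limma adjusted p-values of 0.66 and 0.70. *Sln* encodes sarcolipin, an inhibitor of the SERCA pump in atria, and was at 0, 27.1 and 45.6 in controls and 10.1, 17.9 and 2.00 in mutants. *Gja5* encodes connexin 40, a gap junction protein of atrial myocardium that arterial endothelium also makes. It was at 438, 387 and 565 in controls and 428, 431 and 347 in mutants, and so did not share the range of the other atrial genes (log2 fold change -0.20, 95% interval -0.50 to 0.11).

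Ventricular light chains were low throughout. *Myl2* and *Myl3* encode the ventricular regulatory and essential light chains. *Myl2* was at 4.01, 8.03 and 22.8 normalized counts in the Dermo1-Cre controls and 11.1, 3.97 and 3.0 in the mutants. *Myl3* was at 6.01, 7.03 and 68.4 in controls and 3.03, 7.94 and 4.99 in mutants. Neither reached the threshold for a test there, and *Myl3* stood out in control replicate 3, the library that was also highest in *Nppa*. The share of *Myl7* reads in the sum of *Myl7* and *Myl2* reads was 95.8% to 99.1% over the 6 libraries, with a mean of 97.95% ± 1.84 in controls and 97.6% ± 1.02 in mutants (SD, n = 3 libraries each, two-sided exact permutation p = 0.8, where 0.1 is the least that 3 against 3 libraries allow). In the *Vangl1/2* table the share was 98.6% ± 0.572 in controls and 99.2% ± 0.252 in mutants (SD, n = 3 each, two-sided exact permutation p = 0.2). It ranged from 96.9% to 98.8% in the Sox9-Cre table. Regulatory light chain reads were thus mostly *Myl7* in libraries high and low in cardiomyocyte genes. The lowest share rests on 92 *Myl7* and 4 *Myl2* reads.

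The heavy chains were less uniform. *Myh6* encodes alpha myosin heavy chain and *Myh7* the beta chain of the embryonic ventricle and of slow skeletal fibers. *Myh6* was at 84.2, 1671 and 5635 in the Dermo1-Cre controls and 627, 566 and 70.9 in the mutants, with a log2 fold change of -1.66 (95% interval -4.66 to 1.35). *Myh7* was at 19, 34.1 and 132 in controls and 25.2, 94.3 and 21.0 in mutants (log2 fold change -0.26, 95% interval -1.83 to 1.32). *Myh6* followed the light chains, and *Myh7* had its second-highest value in mutant replicate 2. The share of *Myh6* in the reads of both chains was 77.2% to 98% over these libraries. It was 61.8% to 98.3% with Sox9-Cre, lowest in mutant replicate 3, and 36.8% to 96.5% in the *Vangl1/2* table, where *Myh7* exceeded *Myh6* in mutant replicate 1. The transcripts share a stretch of 465 bases at 98.28% identity, and antisense transcripts of the locus such as *Mhrt* overlap *Myh7*, so counts of both are uncertain where reads fall there. *Gm13054* likewise overlaps *Nppa* and *Gm47644* overlaps *Pln* on the other strand.

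Genes of the thin filament and of the sarcomere frame had the same highest library. *Actc1* (cardiac actin) was at 838, 2075 and 5501 normalized counts in the Dermo1-Cre controls and 1034, 2199 and 359 in the mutants. *Tnnt2* (cardiac troponin T) was at 57.1, 649 and 2232 in controls and 257, 313 and 57.9 in mutants. *Ttn*, which encodes titin, the spring of the sarcomere, was at 19, 183 and 783 in controls and 105, 321 and 40.9 in mutants. Their log2 fold changes were -1.18, -1.38 and -0.34, and the 95% interval of each included 0. The troponins *Tnnc1* (53.1, 443 and 1234 in controls, 159, 334 and 44.9 in mutants), *Tnni3*, the adult cardiac troponin I (31.1, 236 and 531, then 89.7, 95.3 and 26.0), and *Tnni1*, the fetal and slow skeletal form (74.2, 341 and 804, then 152, 283 and 76.9), overlapped between the groups. *Tnni3* made up 36.7% ± 6.26 of the reads on both troponin I genes in controls and 29.2% ± 6.85 in mutants (SD, n = 3 libraries each, two-sided exact permutation p = 0.2). *Mybpc3*, the cardiac myosin binding protein C, was at 13, 231 and 718 in controls and 97.8, 95.3 and 14 in mutants (log2 fold change -1.35). The frame and Z disc genes *Ldb3*, *Csrp3* and *Myom1* had log2 fold changes of -1.12, -1.36 and -0.65 with 95% intervals that included 0. Of the 17 members of the sarcomere tested, 17 had values below 0 (49.7% of all genes did) and 0 were called by limma, with a median of -1.19. These values, too, include control replicate 3, without which the median of all members tested was -0.17. *Mylk3*, the cardiac kinase of the myosin light chain, was at 27.1, 67.2 and 190.2 in controls and 38.3, 31.8 and 22 in mutants (log2 fold change -1.21, 95% interval -2.48 to 0.06).

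Calcium handling divided into genes that followed the sarcomere and genes that did not. *Pln* encodes phospholamban, which restrains SERCA2, and was at 2.00, 20.1 and 101 normalized counts in the Dermo1-Cre controls and 7.06, 5.95 and 3.99 in the mutants. *Ryr2*, the calcium release channel of the sarcoplasmic reticulum, was at 137, 192 and 393 in controls and 162, 134 and 133 in mutants (log2 fold change -0.61, 95% interval -1.30 to 0.08). *Atp2a2* was at 5749, 6146 and 7252 in controls and 6211, 5420.5 and 5681 in mutants (log2 fold change -0.14, 95% interval -0.32 to 0.04). *Trdn*, which encodes triadin, a partner of the release channel, was at 4.01, 57.2 and 116 in controls and 17.1, 27.8 and 2.0 in mutants. *Ckm*, the muscle creatine kinase, did not exceed 24.8 in any library. *Pln*, *Ryr2* and *Atp2a2* had their highest value in control replicate 3, which for *Atp2a2* was 1.3-fold above the lowest.

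Among the channels and junctions, *Hcn4* was the member whose groups did not overlap, which 7.92% of all genes did in that direction. *Hcn4* encodes the pacemaker channel of the sinoatrial node. It was at 52.1, 126 and 105 in the Dermo1-Cre controls and 49.4, 35.7 and 41.9 in the mutants. The lowest control and the highest mutant were close to each other. Its log2 fold change was -1.06 (95% interval -1.73 to -0.38) with an unadjusted p of 0.00606 and an adjusted p of 0.32 by limma, and DESeq2 on the recovered reads gave -1.16 with an adjusted p of 0.0467, where 0.161% of all genes were called lower. *Kcnj5*, a potassium channel subunit of atrial and nodal cells, was at 13.0, 64.2 and 134 in controls and 36.3, 24.8 and 12.0 in mutants (log2 fold change -1.10, 95% interval -2.70 to 0.50). *Dsc2*, a desmosomal cadherin, was at 69.1, 94.3 and 217 in controls and 117, 90.3 and 57.9 in mutants (log2 fold change -0.40, 95% interval -1.27 to 0.47). *Nkx2-5*, the cardiac homeobox factor, was at 7.01, 24.1 and 92.1 in controls and 11.1, 15.9 and 2.00 in mutants (log2 fold change -1.65, 95% interval -3.61 to 0.32). Apart from *Hcn4*, the groups of these genes overlapped.

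The Sox9-Cre comparison chose the genes and is given as a description. All 32 members listed above the threshold were below 0 (49.3% of all genes were), with a median of -1.90. The groups did not overlap for 12 of them (4.36% of all genes in that direction), namely *Pln*, *Mylk3*, *Kcnj5*, *Corin*, *Dsc2*, *Myl7*, *Myl2*, *Myl3*, *Myh6*, *Ryr2*, *Hcn4* and *Ldb3*. Nothing is read from these counts. The median was -2.59 without mutant replicate 1, the library that lay among the controls, -1.42 without control replicate 3 and -1.10 without mutant replicate 3. The lowest log2 fold changes were those of *Nppa* (-4.54), *Pln* (-3.08), *Trdn* (-3.05), *Myh6* (-2.91) and *Mybpc3* (-2.69), and those nearest to 0 were *Smpx* (-0.44), *Atp2a2* (-0.19) and *Gja5* (-0.16). *Myl7* was at 632, 1022 and 1725 normalized counts in controls and 631, 317 and 63.6 in mutants. *Myl4* was at 681, 933 and 2142 in controls and 771, 342 and 85.1 in mutants. Mutant replicate 1 was at the level of control replicate 1 for both light chains, and mutant replicate 3 was the lowest of the 6 libraries for 25 of 32 members. *Myh6* was at 1249.8, 2104 and 4966 in controls and 1032, 516 and 56.4 in mutants. *Tnnt2* was at 494, 752 and 2109 in controls and 505, 180.0 and 45.1 in mutants. *Actc1* was at 1727, 2660.3 and 4825 in controls and 2234, 1214 and 545 in mutants. These genes were highest in mutant replicate 1 and lowest in mutant replicate 3 among the mutants. *Myh7*, at 77.3, 36.8 and 137 in controls and 107, 35.2 and 34.9 in mutants, overlapped between the groups.

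Several less abundant members of the Sox9-Cre table did not overlap between the groups, as 4.36% of all genes did in that direction. Nothing is read from this either, since these libraries chose the genes. *Pln* was at 22.8, 40.8 and 95.8 in controls and 8.78, 3.02 and 3.08 in mutants. *Mylk3* was at 80.3, 91.6 and 205 in controls and 42.0, 39.2 and 16.4 in mutants. *Kcnj5* was at 51.5, 79.7 and 127 in controls and 31.2, 30.2 and 20.5 in mutants. In these genes mutant replicate 1 lay below every control, unlike in *Myl4*, *Tnnt2* and *Actc1*. *Corin* was at 158, 144 and 224 in controls and 115, 57.3 and 53.3 in mutants. *Hcn4* was at 65.4, 73.7 and 92.8 in controls and 52.7, 28.2 and 41.0 in mutants. *Dsc2* was at 188, 130.4 and 198 in controls and 96.6, 101 and 61.5 in mutants. The ventricular *Myl2* was at 10.9, 12.9 and 35.9 in controls and 7.81, 4.02 and 2.05 in mutants. *Myl3*, also ventricular, was at 17.8, 27.9 and 57.9 in controls and 6.83, 5.03 and 7.18 in mutants. Both were low and did not overlap. *Pln*, *Myl2* and *Myl3* reached 10 normalized counts in controls only, so they passed the threshold through the group where they were high. *Sln* (23.8, 33.9 and 62.8 in controls, 26.4, 7.04 and 0 in mutants), *Nkx2-5* (14.9, 33.9 and 67.8, then 21.5, 10.1 and 0) and *Ttn* (186, 245 and 665, then 302, 80.5 and 22.6) overlapped. *Ryr2* (174, 231 and 449.9 in controls, 166, 165 and 170.2 in mutants) *Atp2a2* (5616, 6265 and 7487 in controls, 5394, 5715 and 5794 in mutants) and *Gja5* (435, 532 and 636 in controls, 462, 492 and 467 in mutants) had less than 3-fold between the highest and the lowest library.

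In the *Vangl1/2* table the members moved in both directions. Limma called 0 of 26 at an adjusted p under 0.05 and 1 gene of 14303 in all (0.00699%). EdgeR and DESeq2 called 0 members too, with 1 gene (0.00699%) and 20 genes (0.140%) called in all. Of the members tested, 14 of 26 were below 0, against 51.2% of all genes, with a median of -0.05 by limma, which was 0.28 by edgeR and 0.29 by DESeq2. At an unadjusted p under 0.05, *Atp2a2* was higher and *Smpx* lower, where 12.0% of all genes were higher and 8.56% lower. With a trend on transcript length removed neither passed, and edgeR had 1 member, lower, at that threshold. Without control replicate 2, the library that lay beside the mutants, limma called 6183 genes in all (43.2%) and 4 of 26 members, a share below that of all genes. Without either other control it called 0 genes. *Atp2a2* (log2 fold change 0.56, adjusted p = 0.00120), *Ryr2* (1.05, adjusted p = 0.00726) and *Dsc2* (0.81, adjusted p = 0.0150) were then higher in mutants, and *Smpx*, a small protein of striated muscle, was lower (-0.66, adjusted p = 0.00308).

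The atrial light chains differed more within the groups than between them there. *Myl7* was at 473, 306 and 1196 normalized counts in controls and 103, 1519 and 203 in mutants (log2 fold change -0.81, 95% interval -2.93 to 1.30). *Myl4* was at 352, 204 and 963 in controls and 66.4, 986 and 199 in mutants (log2 fold change -0.80, 95% interval -2.91 to 1.32). *Myh6* was at 128, 226 and 245 in controls and 21.1, 1689 and 241 in mutants (log2 fold change 0.11, 95% interval -2.87 to 3.08). The highest and the lowest library were both mutants for *Myl7*, *Myl4* and *Myh6*. *Tnnt2* (131, 133 and 575 in controls, 38.2, 653 and 105 in mutants), *Actc1* (580.4, 548 and 1952, then 175, 2252 and 674) and *Ttn* (29.95, 62.4 and 21.0, then 9.06, 147 and 48.3) had the same highest and lowest libraries, with 95% intervals that included 0. *Myh7* was the member whose mutants lay above every control, as 13.6% of all genes did. It was at 32.0, 28.9 and 35.7 in controls and 36.2, 61.1 and 45.3 in mutants (log2 fold change 0.52, 95% interval -0.05 to 1.10, limma adjusted p = 0.27).

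Of the remaining genes of this table, *Atp2a2* was at 4736, 6464 and 4328 in controls and 6345, 7639 and 6129 in mutants (log2 fold change 0.39, 95% interval 0.01 to 0.76, limma adjusted p = 0.24). Control replicate 2 was at the level of the mutants. *Ryr2* was at 76.4, 165 and 82.0 in controls and 133, 246 and 138 in mutants (log2 fold change 0.70, 95% interval -0.09 to 1.49). *Dsc2* was at 82.6, 119 and 64.1 in controls and 102, 165 and 127 in mutants (log2 fold change 0.58, 95% interval -0.03 to 1.19). In all 3 of these genes it was again control replicate 2 that overlapped the mutants. *Smpx* was at 359, 261 and 432 in controls and 262, 268 and 219.6 in mutants (log2 fold change -0.46, 95% interval -0.90 to -0.02, limma adjusted p = 0.24). *Hcn4* (34.1, 47.5 and 50.4 in controls, 35.2, 107 and 46.3 in mutants), *Corin* (45.4, 74.6 and 42.0, then 44.3, 141 and 62.0), *Kcnj5* (13.4, 26.1 and 13.7, then 4.03, 85.7 and 17.7) and *Mylk3* (33, 49.4 and 50.4, then 37.2, 64.1 and 31.5) peaked in mutant replicate 2, and their groups overlapped. *Gja5* (397, 465 and 372, then 351, 445 and 320.0), *Nkx2-5* (17.6, 8.39 and 18.9, then 0, 18.7 and 8.86), *Sln* (1.03, 0.932 and 18.9, then 0, 18.7 and 0.99), *Pln* (9.30, 6.52 and 22.1, then 4.03, 19.7 and 4.92), *Myl2* (4.13, 3.73 and 24.2, then 1.01, 12.8 and 0.99) and *Myl3* (10.3, 3.73 and 6.31, then 12.1, 7.88 and 5.91) overlapped as well.

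*Nppa* and *Myl7*, both atrial, did not keep a fixed ratio. Of the reads on both genes, *Nppa* took 39.4% (95% Wilson interval 37.8% to 41.0%) in Dermo1-Cre control replicate 3, and 48.3% (46.7% to 50.04%) and 31.8% (29.5% to 34.2%) in Sox9-Cre control replicates 3 and 2. Every other library was at 7.97% or less, and *Vangl1/2* mutant replicate 2 was at 0.388% (0.178% to 0.843%) although its 1542 *Myl7* reads were in the range of the high control libraries. The intervals cover counting error only. All 6 libraries of the *Vangl1/2* table were at 2.86% or less, so this contrast lies between tables. The share is taken from reads within a library, so size factors do not enter it. Within the Dermo1-Cre table, control replicate 2 had 891 *Myl7* reads and was at 4.91% (3.70% to 6.49%). Libraries with much *Myl7* thus came with and without *Nppa* (plot of *Nppa* against *Myl7*). *Bmp10*, a growth factor of trabecular and atrial myocardium that was chosen after its values were seen, was at 35.7 normalized counts in Dermo1-Cre control replicate 3 and at 13.9 and 51.9 in Sox9-Cre control replicates 2 and 3. It was listed at 0 in the other libraries of both *Wnt5a* tables and at 1.86 or below in the *Vangl1/2* table. These 3 libraries also had the 3 highest values of *Nppa*.

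**Figure D4:**
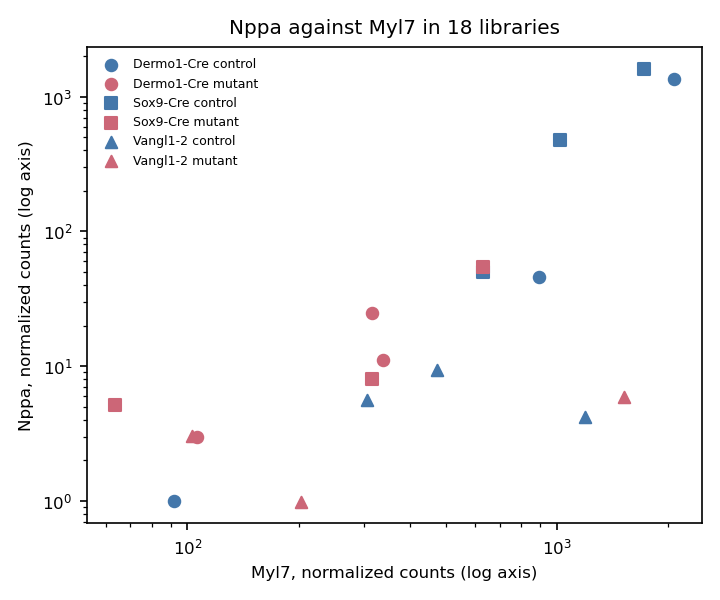
Normalized counts of Nppa against Myl7 in the 18 libraries, both on log axes, with symbols for the experiments and colors for control and mutant. Dermo1-Cre control replicate 3 and Sox9-Cre control replicates 2 and 3 lie between 476 and 1614 for Nppa, while Vangl1-2 mutant replicate 2, with 1519 for Myl7, is at 5.91.

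Some members are also made by embryonic skeletal muscle, so a list of skeletal muscle genes was read beside them. *Myh3*, the embryonic skeletal myosin heavy chain, was at 14.0, 12.0 and 281 normalized counts in the Dermo1-Cre controls and 32.3, 825 and 44.9 in the mutants. With Sox9-Cre it was at 286, 4.98 and 354 in controls and 770.0, 21.1 and 6.15 in mutants, and in the *Vangl1/2* table it did not exceed 26.1. The libraries highest in *Myh3*, Dermo1-Cre mutant replicate 2 and Sox9-Cre mutant replicate 1, were not those highest in *Myh6*. The 19 skeletal muscle genes listed summed to 19.6 to 113 RPM in the Dermo1-Cre controls and 25.2 to 199.7 in the mutants, to 33.4 to 125 and 18.5 to 181 with Sox9-Cre, and to 18.9 to 28.0 and 15.2 to 34.1 in the *Vangl1/2* table. The skeletal muscle genes tested had median log2 fold changes of 0.32 (12 genes), -0.35 (13 genes) and -0.45 (8 genes) in the 3 tables. Limma called 0 of the 12 with Dermo1-Cre (0 at an unadjusted p under 0.05) and 0 of the 8 in the *Vangl1/2* table (2, both lower).

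Single pairs of libraries, a few of those possible, show which members were higher in 1 library than in another. Dermo1-Cre mutant replicate 2 exceeded control replicate 2 in 8 of 29 members (49.2% of all genes), namely *Myh7*, *Actc1*, *Actn2*, *Casq2*, *Ttn*, *Gja5*, *Smpx* and *Myom1*. *Actn2*, the actinin of the Z disc, was at 161 in that control and 296 in that mutant, and *Casq2*, the calcium store protein of the sarcoplasmic reticulum, at 63.2 and 112. *Myl7* had 894 and 317 in the same pair of libraries. Sox9-Cre mutant replicate 1 exceeded control replicate 2 in 5 of 32 members (47.8% of all genes), namely *Myh7*, *Tnnc1*, *Actn2*, *Casq2* and *Ttn*. *Myh7*, *Actn2*, *Casq2* and *Ttn* were in both of these groups (plot of cardiac, shared and skeletal muscle genes). Other pairs gave other members. Dermo1-Cre mutant replicate 2 exceeded control replicate 1 in 25 of 29 (48.5% of all genes), among them *Nppa*, *Myl7* and *Myh6*. It exceeded mutant replicate 1 in 20 of 29 (50.8%). Sox9-Cre mutant replicate 1 exceeded control replicate 1 in 19 of 32 (47.1%), among them *Nppa*, *Myl4* and *Tnnt2*. The part of skeletal muscle in the values of these members was not tested.

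**Figure D5:**
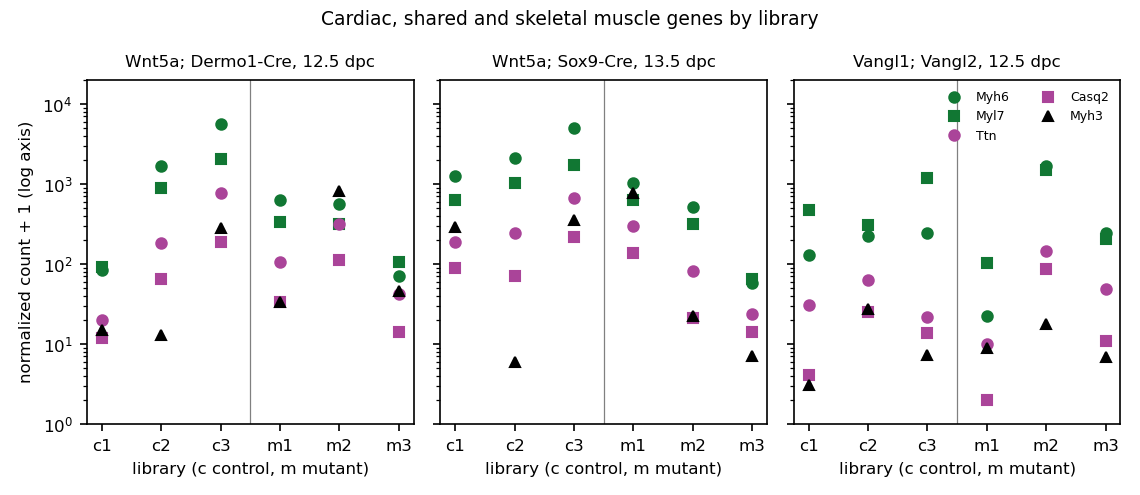
Normalized count + 1 (log axis) in each library for the cardiac genes Myh6 and Myl7 (green), the members Ttn and Casq2 that skeletal muscle also makes (purple) and the skeletal gene Myh3 (black). Myh3 is highest at 825 in Dermo1-Cre mutant replicate 2 and at 770.0 in Sox9-Cre mutant replicate 1, whereas Myh6 is highest in control replicate 3 of both tables.

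Other cardiac muscle genes, from a list of 38 that holds none of the members, were read the same way. With Dermo1-Cre 30 of 31 tested were below 0 (49.7% of all genes were), with a median of -0.55. These values include control replicate 3, where the list summed to 760 RPM, against 368 to 495 in the other Dermo1-Cre libraries. With Sox9-Cre 30 of 32 were below 0 (49.3% of all genes were), with a median of -1.04. Nothing is read from that count, since the Sox9-Cre libraries chose the members. With *Vangl1/2* lost, 13 of 26 were below 0 (51.2% of all genes were), with a median of 0.09. Limma called 0 of these other cardiac muscle genes at an adjusted p under 0.05 with Dermo1-Cre (1 lower at an unadjusted p under 0.05). It called 0 in the *Vangl1/2* table (1 higher). The 3 most abundant of them varied less from library to library than most members did. *Nexn*, an actin-binding protein of the Z disc, was at 3193, 3054 and 3554 in the Dermo1-Cre controls and 3022, 3191 and 2782 in the mutants. *Slc8a1*, the sodium and calcium exchanger, was at 871, 1109 and 1799 in controls and 1001, 972 and 831 in mutants. *Des*, the muscle intermediate filament desmin, was at 802, 961 and 1204 in controls and 777, 1091 and 753 in mutants. Their highest library was again control replicate 3. That library was also highest for the smooth muscle list (1875 RPM, 1273 to 1727 in the others). The same held for the esophagus and thymus list (67.1 RPM, 39.5 to 63.7 in the others). The lists of endothelium and of lung epithelium and mesenchyme were highest in control replicate 1 (891 and 1163 RPM).

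Cardiac transcription factors, a list of 22 without *Nkx2-5*, had medians of -0.11, -0.12 and 0.29 over the 20 tested in each table. Of these, 14 with Dermo1-Cre, 15 with Sox9-Cre and 2 in the *Vangl1/2* table were below 0. The shares of all genes were 49.7%, 49.3% and 51.2%. Limma called 0 of them with Dermo1-Cre (1 higher and 4 lower at an unadjusted p under 0.05) and 0 in the *Vangl1/2* table (5 higher). The most abundant were *Tbx2*, *Nr2f2* and *Tbx5*, which the lung itself expresses. *Tbx5* was at 3130.5, 3279 and 3086 in the Dermo1-Cre controls and 2882, 2988 and 3005 in the mutants. *Tbx20*, a T-box factor of the heart chosen after its values were seen, was highest in control replicate 3 of both *Wnt5a* tables, as most members were. It was at 37.1, 162 and 369 in the Dermo1-Cre controls and 124, 79.4 and 37.9 in the mutants. With Sox9-Cre it was at 122, 143 and 294 and then 105, 88.5 and 31.8. *Hand2*, *Shox2*, *Smyd1* and *Tbx18*, chosen likewise, were also below 0 with Dermo1-Cre (-1.02, -1.02, -0.35 and -0.40) and with Sox9-Cre (-1.03, -1.82, -1.29 and -1.02).

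Markers of other tissues are given as sums or counts. The summed normalized counts of the lung epithelium and mesenchyme list lay between 16901.8 and 18758 in the Dermo1-Cre libraries and between 16059 and 17697 in the Sox9-Cre libraries. Those of the endothelium list lay between 13004 and 14380 and between 13356 and 13965. Of the mesothelium and epicardium list in the Sox9-Cre table, 7 of 9 genes were below 0 with a median of -0.35, and *Wt1*, *Bnc1* and *Upk3b*, markers of these linings chosen after their values were seen, were lower in every mutant than in every control (4.36% of all genes were). The list summed to 426 to 474 RPM in those controls and 348 to 427 in the mutants. In the *Vangl1/2* table it was highest in mutant replicate 2, at 615 RPM, against 334 to 467 in the other libraries. Of the smooth muscle list, 8 of 10 genes were lower in Dermo1-Cre mutants at an unadjusted p under 0.05 (4.76% of all genes were) and 0 were called by limma after adjustment. *Acta2*, smooth muscle actin, was at 7085, 6385 and 8376 in those controls and 4212, 6603 and 4628 in the mutants. The median log2 fold change of the smooth muscle list was -0.50 with Dermo1-Cre, -0.03 with Sox9-Cre and -0.20 in the *Vangl1/2* table. Of the neuron and glia list, 6 of 7 were higher in Dermo1-Cre mutants at an unadjusted p under 0.05 (5.42% of all genes were), and 0 were called by limma after adjustment. The part of these other tissues in the values of the cardiomyocyte genes was not tested.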

How the data were processed

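Whole embryonic lungs were frozen, RNA was extracted, and bulk RNA-Seq was carried out by the authors on Illumina instruments. The submitters' processing notes name Trim Galore, HISAT2, featureCounts, DESeq2 and the mm10 build, and the annotation and the use of strand in counting are not given in the sources used here. The values per library that the authors deposited are a signal, gene counts divided by a size factor computed within each table. The deposited column of means has the same unit, and a log2 fold change column and a p-value column hold the authors' own comparison. These 3 columns were not used. Values were whole multiples of 1 step, to within 0.001 reads, in 100% of cases, so that reads were recovered, and 10 normalized counts rest on about 10 reads.

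A pseudocount of 1 was added, and genes reaching 10 normalized counts in 3 or more of the 6 libraries were fitted on the log2 scale with limma (version 3.58.1, R 4.3.3) with a mean-variance trend, within each table. P-values were adjusted by Benjamini-Hochberg over all genes tested at 0.05. A fold change on the log2(value + 1) scale understates that of low genes. EdgeR's quasi-likelihood test (version 4.0.16) and DESeq2 (version 1.42.0) on recovered reads, TMM scaling, a pseudocount of 5, no filter, removal of a trend on transcript length, a replicate block and leaving out each library were the alternatives. The procedure was tested on simulated data. Single shares were compared by exact permutation, for which 0.1 is the smallest p with 3 libraries against 3. The methods call repeats biological but do not say how many embryos a library holds, so p-values measure the spread between these samples, which may be technical. Levels between genes use the median length of GENCODE M21 transcripts. Near-identical stretches were searched with BLAST (version 2.17.0) at 100 bases and 98% identity, and figures were drawn with Python (version 3.11.15).

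The members and lists were chosen with earlier results of these data known. Values in every library are given for the atrial and ventricular members, *Myh6*, *Tnnt2*, *Actc1*, *Ttn*, *Pln*, *Ryr2*, *Atp2a2*, *Nkx2-5*, *Hcn4*, *Corin*, *Kcnj5*, *Mylk3* and *Dsc2*, and for any member called, and the other members are given in part or as ranges. Of the other lists, genes called or, where none was, up to 3 with the highest mean level were named, and the text says where a gene was chosen after its values were seen. The tables were normalized separately, so tests were made within a table, and levels set side by side across tables are descriptions. A gene of the lists is not reported here.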

Additional observations from a re-analysis of the deposited data

How the results depend on the processing

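With libraries left out singly, genes called by limma ran from 0 to 54 with Dermo1-Cre (2 with all libraries), from 0 to 13 with Sox9-Cre (0, with 557 at an unadjusted p under 0.05) and from 0 to 6183 in the *Vangl1/2* table (1), where the 6183 came without control replicate 2, 13 without Sox9-Cre mutant replicate 1 and 54 without Dermo1-Cre mutant replicate 1. Members called ran from 0 to 0 with Dermo1-Cre and from 0 to 4 in the *Vangl1/2* table, and their median log2 fold change from -1.97 to -0.17, from -2.59 to -1.10 (Sox9-Cre) and from -1.03 to 0.48. DESeq2 on recovered reads called 100, 9 and 20 genes with Dermo1-Cre, Sox9-Cre and *Vangl1/2*, and 1 member (*Hcn4*) with Dermo1-Cre, while edgeR called 2, 0 and 1. The replicate block moved the genes called to 16 with Dermo1-Cre and 0 in the *Vangl1/2* table, and members called stayed at 0. Replicate numbers are shared by control and mutant labels. Deviations of same-numbered libraries correlated at -0.223 to 0.303, and in no table above 0.1 for every pair. With 3 libraries per group, such correlations cannot show whether same-numbered samples were paired. The main fit used no pairing, and the replicate block was its alternative. *Myl4* took a mean of 97.0% of the reads on *Myl4* and *Myl3* with Sox9-Cre and 95.9% in the *Vangl1/2* table. For *Myl7* against *Myl2* the means were 98.2% and 98.9%. The *Myl4* share ran from 84.6% to 99.3% in the *Vangl1/2* table, lowest in mutant replicate 1, on 66 *Myl4* and 12 *Myl3* reads. No sign of a member tested turned in the Dermo1-Cre table under the other tests, scalings, filters and pseudocounts, but 17 of 174 values with a library left out did, and 31 of 156 in the *Vangl1/2* table, where edgeR turned 4 of 26, DESeq2 5, removal of the length trend 3 and a pseudocount of 5 turned 1. No tested member's call was reversed. The cause of these shifts was not tested. Groups of 3 libraries and their wide spread limit the precision of every value.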
